A study of Mus musculus with 9 samples.

Results

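RNA levels of LMX1A, of the mouse LIM-homeodomain factors and of the proteins that bind LIM domains were read in 9 RNA-sequencing libraries of HEI-OC1 cells. The rows were chosen by gene name and held 10 genes of 55451 in the table. The genes were transduced human LMX1A, its mouse counterpart Lmx1a, and the related mouse factors Lmx1b, Lhx1 and Lhx2. With them were the cofactors Ldb1 and Ldb2, the LIM-only gene Lmo4, and Ssbp2 and Ssbp3. HEI-OC1 is an immortalised mouse line made from the organ of Corti, the hearing organ of the cochlea. All cells had been transduced: 3 libraries carried the empty vector control (EV), 3 carried LMX1A WT (WT) and 3 carried LMX1A c.915dup (c915dup), the frameshift form near the C-terminus that the study links to familial hearing loss. All were kept as monolayers in the same serum-containing medium. The sources used here give neither the promoter of the vector nor whether each line was a pool or 1 clone. Nothing says that libraries of a group were separate cultures. The p-values therefore cover library-to-library spread alone, and this spread could be technical.

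LIM-homeodomain factors join a DNA-binding homeodomain to a pair of LIM zinc fingers that bind other proteins. The LIM fingers are held by LDB1, a self-associating adaptor that can bridge LIM proteins on separate DNA sites, and single-stranded DNA-binding proteins (SSBP) bind LDB1 and shield it from breakdown by the ubiquitin ligase RLIM. LIM-only proteins such as LMO4 have LIM fingers and no homeodomain, and can take up LDB1 in place of a LIM-homeodomain factor. In the mouse inner ear, Lmx1a is needed for the cochlea and vestibular organs to form as separate structures.

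Levels are in FPKM, the number of fragments scaled to 1 kilobase of transcript and 1e6 fragments in the library, so that levels of different genes could be set side by side per length. A gene was tested where at least 3 libraries reached 1 FPKM, which held for 11933 genes, and it passed at a Benjamini-Hochberg adjusted p under 0.05 in limma on log2(FPKM + 1). Of the 10 genes, 5 were tested (LMX1A, Ldb1, Lmo4, Ssbp2 and Ssbp3) and 5 were too low (Lmx1a, Lmx1b, Lhx1, Lhx2 and Ldb2). Of the 4 tested mouse genes, 0 passed between WT and EV, where 0.352% of all genes tested passed. The count was also 0 of 4 between c915dup and EV, where 1.09% passed, and 0 of 4 between c915dup and WT, where 0.226% passed. With the column number of the library as a replicate block, 96, 227 and 137 genes passed in the 3 comparisons in place of 42, 130 and 27, and the count of these mouse genes was again 0 of 4 in each. Number 4 occurs only in c915dup, so this block also takes c915dup replicate 4 out of the comparisons. Between c915dup and WT, 26 genes were higher and 1 was lower, a split that became 32 and 10 with values rescaled to an equal sum and 51 and 12 with median-of-ratios size factors. It was 374 and 200 with the libraries numbered 1 as a block, and 188 and 161 without those libraries.

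Fragment depth, estimated from the steps of the low values, was 13.3 to 16.3 (in units of 1e6 fragments) per library. The 3 libraries numbered 1, 1 in each group, stood apart from the other 6: mitochondrial genes took 4.36% to 5.49% of their FPKM, against 1.69% to 2.17% elsewhere. The labels call the line a cochlear hair cell line, but 11 of 12 hair cell markers stayed below 1 FPKM in all libraries, among them Atoh1 and Pou4f3, listed at 0. Myo6, an unconventional myosin of hair bundles and of many other cells, was the exception at 6.44 to 7.73 FPKM. The 12 markers summed to 6.79 to 7.99 FPKM and the 10 supporting cell markers to 70.3 to 88.0 FPKM. The 6 mesenchymal markers summed to 1820 to 2024 FPKM. Vim (714 to 814 FPKM) and Col1a1 (443 to 540 FPKM) led the mesenchymal sum, while Thy1, also on that list, was listed at 0 in all libraries. Cdkn1b, a general cell cycle inhibitor at 34.6 to 52.7 FPKM, and S100a1, at 15.4 to 19.0 FPKM, carried most of the supporting cell sum, while 4 of its markers (Gjb2, Hes5, Prox1 and Sox2) were listed at 0.

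LMX1A was present in all 6 libraries that were given it and in no vector library. It was listed at 0 in EV replicates 1, 2 and 3, at 133, 132 and 131 FPKM in WT replicates 1, 2 and 3, and at 169.6, 150.2 and 149 FPKM in c915dup replicates 1, 3 and 4. Its rows in the table (ENSG00000162761, minus strand) sit on a contig of their own, at positions 3000 to 157848, and not on a mouse chromosome. The mean level of 132 ± 0.871 FPKM in WT (SD, n = 3) was above that of 96.8% of genes tested, and the mean of 156 ± 11.6 FPKM in c915dup (SD, n = 3) above that of 97.3%. No test is given against EV, where the gene was not supplied. These levels match the labels on which groups were given LMX1A, and say nothing on which form was carried. In bulk RNA, more cells with the gene and more of its RNA per cell cannot be told apart.

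The frameshift transcript was not lower than the wild-type one. Every c915dup library lay above every WT library, with a log2 difference of 0.24 ± 0.06 (SE; 95% interval 0.11 to 0.37), which did not pass in limma (Benjamini-Hochberg adjusted p = 0.175). In that comparison 16.1% of all genes tested had groups with no overlap. The libraries numbered 1 bear on the call: with them as a block the difference of 0.24 passed (limma adjusted p = 0.0209), and without c915dup replicate 1, the highest library, it was 0.18. With that block 574 of all genes tested passed in place of 27. The replicate block over all library numbers, to which c915dup replicate 4 adds nothing, gave 0.27 (limma adjusted p = 0.0779).

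Mouse Lmx1a, the endogenous counterpart (ENSMUSG00000026686, chr1:167689237-167848741, plus strand, GRCm38), was listed at 0 in all 9 libraries. Lmx1b, its closest relative, known in the mouse for limb dorsal identity, kidney podocytes and midbrain neurons (ENSMUSG00000038765, chr2:33560965-33640511, minus strand), was listed at 0 in 8 libraries and at 0.0129 FPKM in c915dup replicate 4, about 1 fragment by the depth estimate. Lmx1a was thus not detectable at this depth, and Lmx1b was read in 1 of 9 libraries.

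Lhx1 and Lhx2 were read at low levels in every library. Lhx1, known for head and kidney formation in the mouse (ENSMUSG00000018698, chr11:84518284-84525535, minus strand), was at 0.0659, 0.0999 and 0.182 FPKM in EV, at 0.230, 0.0502 and 0.0440 in WT, and at 0.238, 0.218 and 0.191 in c915dup. The c915dup libraries lay above all 3 EV libraries and overlapped those of WT, on an estimated 74.6 fragments over all 9 libraries. Lhx2, known for eye and forebrain formation (ENSMUSG00000000247, chr2:38339281-38369733, plus strand), was at 0.697, 0.473 and 0.560 FPKM in EV, at 0.632, 0.359 and 0.444 in WT, and at 0.214, 0.718 and 0.576 in c915dup. All 3 groups overlapped for Lhx2. Neither gene was tested.

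Among the other mouse LIM-homeodomain genes, Isl1 and Lhx6 were the only ones to be tested, so that 2 of 12 genes of the mouse family reached the filter. Isl1, a factor of motor neurons and of the developing ear, was at 4.46, 4.35 and 4.98 FPKM in EV, at 5.20, 4.53 and 4.71 in WT, and at 7.61, 5.16 and 5.43 in c915dup. All c915dup libraries lay above those of EV, with a log2 difference of 0.32 ± 0.12 (SE; 95% interval 0.05 to 0.60) that did not pass (limma adjusted p = 0.339) and that was 0.15 without the libraries numbered 1. Lhx6, a factor of forebrain interneurons and jaw mesenchyme, ranged from 2.67 to 3.27 FPKM over all libraries, with differences between groups of -0.01, -0.02 and -0.01 on the log2 scale. Isl2 (0.517 to 0.913 FPKM) and Lhx9 (0.0183 to 0.147 FPKM) were read in all libraries, Lhx8, Lhx3 and Lhx4 were listed at 0 in 5, 7 and 8 libraries, and Lhx5 was listed at 0 in all 9.

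**Figure D1:**
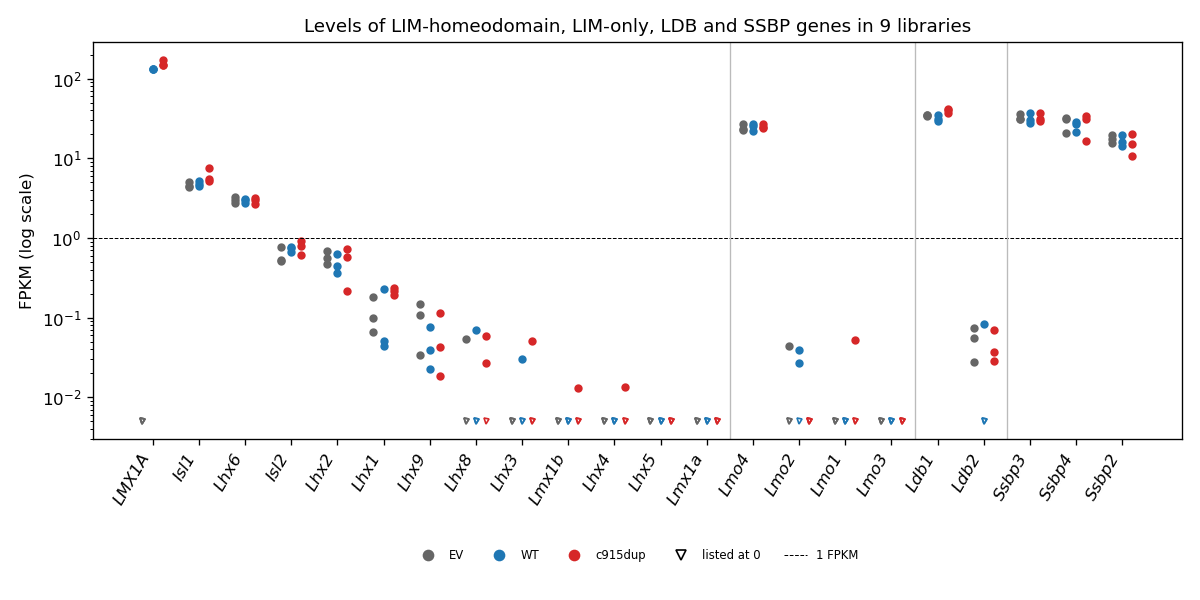
FPKM (log scale) of the LIM-homeodomain, LIM-only, LDB and SSBP genes, 1 point per library coloured by group; an open triangle marks a gene listed at 0 in at least 1 library of that group, and the dashed line is 1 FPKM. LMX1A stood above all mouse genes of these families in WT and c915dup, while Lmo4, Ldb1 and the 3 SSBP genes lay between 10.6 and 41.6 FPKM in every library.

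Lmo4 was the only LIM-only gene above 1 FPKM. It encodes a small adaptor found in epithelial, neural and otic tissue (ENSMUSG00000028266, chr3:144188530-144205220, minus strand) and was at 27.3, 23.2 and 22.9 FPKM in EV, at 26.9, 25.9 and 22.1 in WT, and at 26.7, 24.0 and 24.6 in c915dup. The 3 groups overlapped throughout, with means of 24.5 ± 2.46, 24.9 ± 2.55 and 25.1 ± 1.40 FPKM (SD, n = 3 each). Differences were 0.03 for WT against EV (95% interval -0.18 to 0.23), 0.04 for c915dup against EV (-0.17 to 0.24) and 0.01 for c915dup against WT (-0.19 to 0.22) on the log2 scale, and none passed (limma adjusted p = 0.999, 0.928 and 0.987). Lmo4 made up 68.7% to 74.9% of the summed FPKM of all mouse LIM-homeodomain and LIM-only genes. Of the other LIM-only genes, Lmo2 was above 0 in 3 libraries, Lmo1 in 1 and Lmo3 in none.

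Ldb1 accounted for nearly all LDB RNA, and its level was highest in the c915dup libraries. It lies on the minus strand (ENSMUSG00000025223, chr19:46031570-46045214) and was at 35.0, 34.9 and 34.0 FPKM in EV, at 35.3, 31.3 and 29.7 in WT, and at 40.2, 41.6 and 37.4 in c915dup. All 3 c915dup libraries lay above all 6 others, whose highest value was 35.3 in WT replicate 1, while EV and WT overlapped. The means were 34.6 ± 0.566, 32.1 ± 2.88 and 39.7 ± 2.13 FPKM (SD, n = 3 each).

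The Ldb1 difference between c915dup and WT was 0.30 ± 0.07 on the log2 scale (SE; 95% interval 0.14 to 0.46) and did not pass (limma adjusted p = 0.15, unadjusted p = 0.00168). That between c915dup and EV was 0.19 ± 0.07 (95% interval 0.04 to 0.35; limma adjusted p = 0.313). WT against EV gave -0.11 ± 0.07 (95% interval -0.26 to 0.05; limma adjusted p = 0.932). Ldb1 was thus the 1 of 4 tested mouse genes whose groups did not overlap between c915dup and EV, where 16.9% of all genes tested did not. It was also the 1 of 4 between c915dup and WT, where 16.1% did not. The share of all genes without overlap in both comparisons was not computed. Between WT and EV the count was 0 of 4, with 12.9% of all genes tested.

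The c915dup against WT call for Ldb1 turned on how the libraries numbered 1 were handled. It passed with them as a block (0.30, limma adjusted p = 0.0144) and with all 3 left out (0.36, limma adjusted p = 0.0243), and did not with the replicate block over all numbers (0.34, limma adjusted p = 0.065). With them as a block 574 of all genes tested passed in place of 27, and with all 3 left out 349 passed. Over 19 alternatives the difference ranged from 0.25 to 0.37 with adjusted p from 0.0144 to 0.426, and 2 passed. Ldb1 shares 177 of its 4606 exon bases with Pprc1, a transcriptional coactivator gene on the opposite strand, and strand use in counting is not known from the sources. Pprc1 was at 14.3, 12.4 and 15.3 FPKM in EV, 12.9, 14.1 and 13.4 in WT, and 16.8, 15.1 and 14.9 in c915dup, a c915dup against WT difference of 0.20 ± 0.08 (limma adjusted p = 0.445). Its part in the Ldb1 values was not tested.

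Ldb2, the second LDB gene (ENSMUSG00000039706, chr5:44472132-44799680, minus strand), was close to the limit of detection. It was at 0.0563, 0.0281 and 0.0747 FPKM in EV, at 0, 0 and 0.0838 in WT, and at 0.0372, 0.0705 and 0.0284 in c915dup, an estimated 14.3 fragments over all libraries. Groups overlapped and no test was made.

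Ssbp3 and Ssbp2 split by library number, and their groups overlapped. Ssbp3 (ENSMUSG00000061887, chr4:106910701-107049694, plus strand) was at 36.1, 30.9 and 31.2 FPKM in EV, at 36.6, 30.2 and 27.7 in WT, and at 37.6, 31.6 and 29.5 in c915dup. Its libraries numbered 1 (36.1 to 37.6 FPKM) lay above the other 6 (27.7 to 31.6 FPKM). The group differences for Ssbp3 were -0.06 for WT against EV (95% interval -0.32 to 0.20), 0.00 for c915dup against EV (-0.26 to 0.27) and 0.06 for c915dup against WT (-0.20 to 0.32), with limma adjusted p of 0.999, 0.996 and 0.926.

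Ssbp2 (ENSMUSG00000003992, chr13:91460283-91703429, plus strand) was at 19.6, 17.3 and 15.4 FPKM in EV, at 19.7, 16.1 and 14.3 in WT, and at 20.3, 15.0 and 10.6 in c915dup. Here too the libraries numbered 1 (19.6 to 20.3 FPKM) lay above all others (10.6 to 17.3 FPKM), and the lowest value came from c915dup replicate 4. The group differences for Ssbp2 were -0.07 (95% interval -0.52 to 0.39), -0.22 (-0.67 to 0.24) and -0.15 (-0.60 to 0.31) in the same order, with limma adjusted p of 0.999, 0.759 and 0.89. Without c915dup replicate 4 the differences of c915dup from EV and WT were 0.00 and 0.07. Ssbp2 shares 1765 of 7985 exon bases with the antisense gene 4833422C13Rik, which was at most 0.0497 FPKM.

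Ssbp4, the remaining family gene, moved the other way between library numbers. It was at 21.0, 31.0 and 31.9 FPKM in EV, at 21.7, 27.3 and 29.0 in WT, and at 16.3, 33.7 and 31.5 in c915dup, lower in all 3 libraries numbered 1 than in any other. The log2 difference of the libraries numbered 1 from the others was -0.63 for Ssbp4, against 0.42 for Ssbp2, 0.28 for Ssbp3 and 0.18 for Lmo4. Lmo4 also split by number, the libraries numbered 1 lying at 26.7 to 27.3 FPKM and the rest at 22.1 to 25.9 FPKM, whereas Ldb1 overlapped. These splits were seen in the values and went with the mitochondrial share given above, whose part in them was not tested. Genes outside these families split too. Tcf3 was at 33.4 to 35.3 FPKM in the libraries numbered 1 and at 39.6 to 43.6 FPKM elsewhere. Vim was at 714 to 744 FPKM in the libraries numbered 1 and at 756 to 814 FPKM elsewhere. Others, such as Runx1, overlapped. The share of all genes tested that split by number was not computed.

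**Figure D2:**
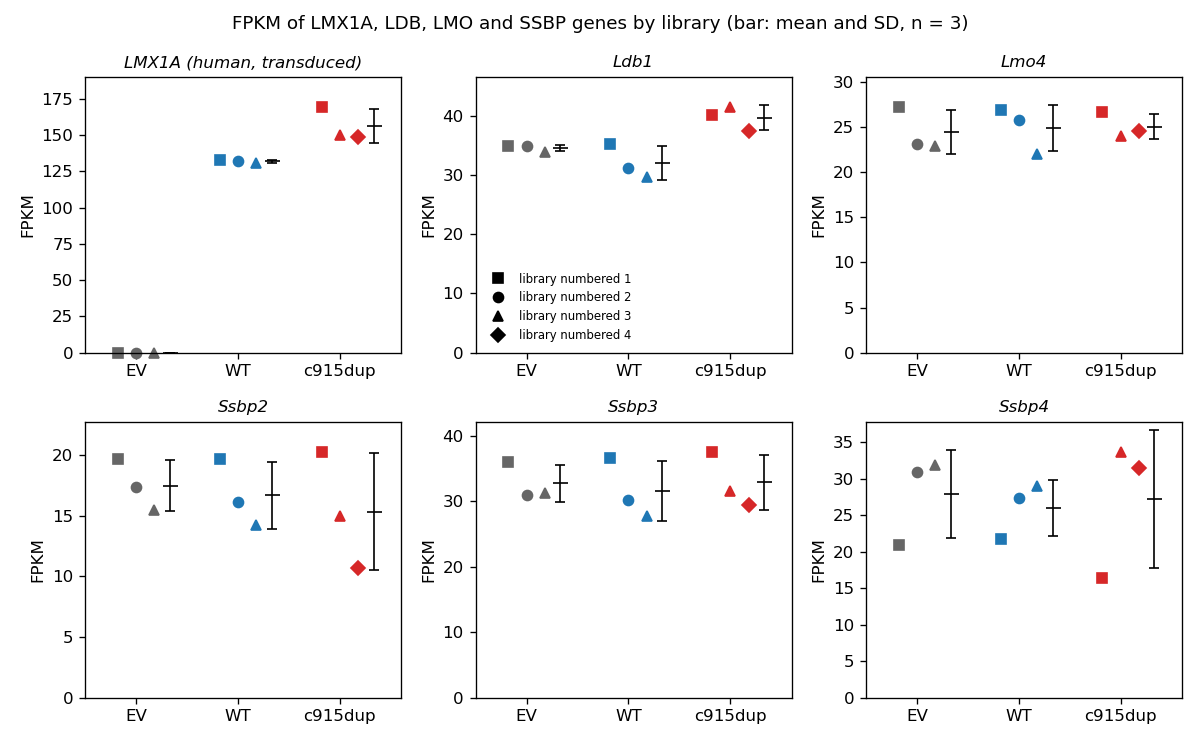
FPKM by library for LMX1A, Ldb1, Lmo4, Ssbp2, Ssbp3 and Ssbp4 in EV (grey), WT (blue) and c915dup (red); the marker shape is the library number and the bar is the mean with SD (n = 3). Ldb1 was higher in all 3 c915dup libraries than in the other 6, while Ssbp2 and Ssbp3 were highest, and Ssbp4 lowest, in the libraries numbered 1 (squares).

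Ranked by mean over all 9 libraries, Ldb1 and Ssbp3 overlapped at the top of the mouse members (29.7 to 41.6 and 27.7 to 37.6 FPKM). Lmo4 (22.1 to 27.3 FPKM) lay wholly below Ssbp3, and Ssbp2 (10.6 to 20.3 FPKM) wholly below Lmo4. Lhx2 (0.214 to 0.718 FPKM) and Lhx1 (0.0440 to 0.238 FPKM) overlapped, and Ldb2 overlapped Lhx1. The median log2 difference of the 4 tested mouse members was -0.06 for WT against EV, 0.02 for c915dup against EV and 0.04 for c915dup against WT, beside medians of -0.005, -0.000 and 0.002 over all genes tested.

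**Figure D3:**
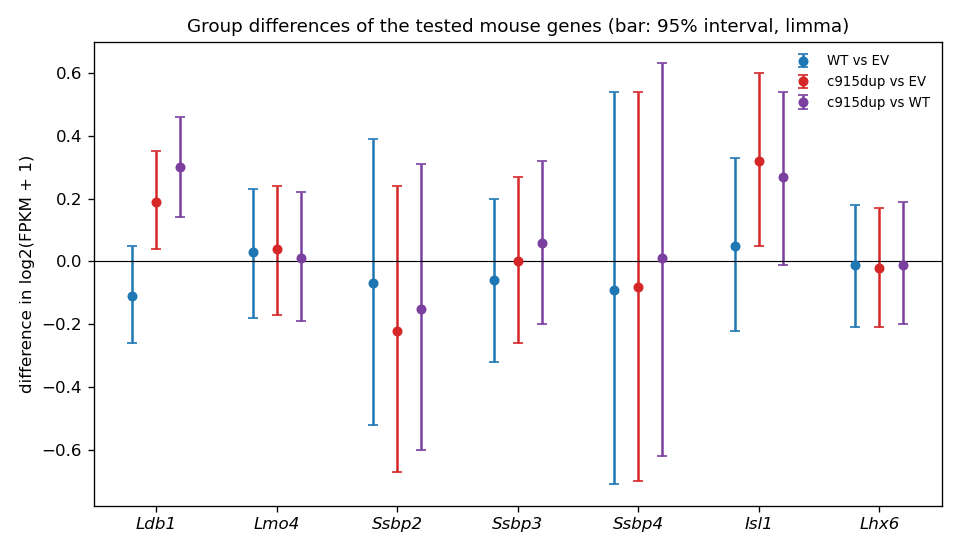
Differences in log2(FPKM + 1) between groups, with 95% intervals from limma, for the tested mouse genes of the LIM, LDB and SSBP families. The Ldb1 interval for c915dup against WT ran from 0.14 to 0.46 and none of the genes passed after adjustment over 11933 genes.

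Setting LMX1A against Ldb1 within a library gives the balance of the transduced factor and its cofactor at the RNA level. The sources used here do not give the transcript length used for LMX1A, so the ratio holds only up to that length, which does not affect a comparison of WT with c915dup if both were counted on the same row. The ratio was 3.76, 4.22 and 4.41 in WT and 4.22, 3.61 and 3.98 in c915dup. The forms overlapped, with means of 4.13 ± 0.333 and 3.94 ± 0.309 (SD, n = 3 each) and a log2 difference of -0.07 (exact permutation test, two-sided, p = 0.6; the smallest p possible with 3 against 3 is 0.1). The difference was -0.007 without c915dup replicate 3, -0.02 without WT replicate 3, -0.13 without WT replicate 1, -0.12 without c915dup replicate 1 and -0.19 without all libraries numbered 1.

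Adding all mouse LIM-homeodomain and LIM-only genes to LMX1A gave the summed LIM-domain RNA per Ldb1. This ratio was 1.04, 0.917 and 0.943 in EV, 4.80, 5.32 and 5.46 in WT, and 5.19, 4.42 and 4.90 in c915dup. Both transduced groups lay wholly above EV, by 2.43 for WT and 2.32 for c915dup on the log2 scale, which the supply of LMX1A fixes and for which no test is given. With LMX1A left out, a measure added after the values were seen, the mouse genes alone differed from EV by 0.14 in WT and -0.10 in c915dup. For the sum with LMX1A included, c915dup differed from WT by -0.10 (exact permutation test, two-sided, p = 0.3), and the forms overlapped. That difference was -0.16 without WT replicate 1, -0.15 without c915dup replicate 1, -0.04 without c915dup replicate 3 and -0.21 without the libraries numbered 1. LMX1A made up 78.4% to 80.8% of the summed LIM-domain FPKM in WT and 81.2% to 81.6% in c915dup.

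**Figure D4:**
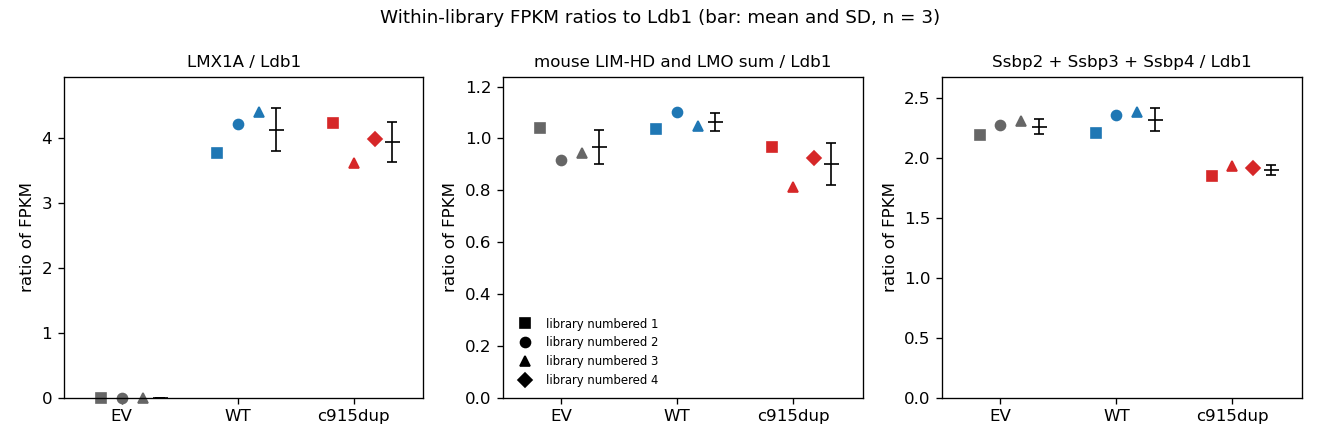
Ratios of FPKM within each library, to Ldb1, of LMX1A (left), of the summed mouse LIM-homeodomain and LIM-only genes (middle) and of the summed SSBP genes (right); shapes give the library number and bars the mean with SD (n = 3). LMX1A to Ldb1 overlapped between WT and c915dup, and the SSBP sum to Ldb1 was lower in c915dup (1.85 to 1.93) than in EV and WT (2.19 to 2.39). The SSBP sum itself overlapped between groups, and Ldb1, the denominator, was highest in c915dup.

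The promoters of untested and tested members are shown to set their base composition beside their levels. RefSeq (GRCm38.p6) gave promoters for 8 of the 9 mouse members, and Ldb2 is named only. The 250 bases before the RefSeq start are printed for Lmx1b (minus strand, chr2:33641099-33641348), listed at 0 in 8 libraries, and for Ldb1 (minus strand, chr19:46045312-46045561) and Lmo4 (minus strand, chr3:144205256-144205505), present in all. Capitals mark CG dinucleotides, of which there are 19, 40 and 44.
Lmx1b: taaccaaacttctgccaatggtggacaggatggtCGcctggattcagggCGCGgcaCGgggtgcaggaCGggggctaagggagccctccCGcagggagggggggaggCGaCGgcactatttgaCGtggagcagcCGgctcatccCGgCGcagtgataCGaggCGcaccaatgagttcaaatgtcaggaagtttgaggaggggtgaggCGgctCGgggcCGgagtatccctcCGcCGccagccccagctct
Ldb1: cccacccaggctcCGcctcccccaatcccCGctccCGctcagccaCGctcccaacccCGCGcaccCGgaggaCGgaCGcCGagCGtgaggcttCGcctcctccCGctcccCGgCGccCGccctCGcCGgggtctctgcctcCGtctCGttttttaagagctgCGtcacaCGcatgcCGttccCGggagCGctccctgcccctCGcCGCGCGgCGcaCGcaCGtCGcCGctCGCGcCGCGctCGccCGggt
Lmo4: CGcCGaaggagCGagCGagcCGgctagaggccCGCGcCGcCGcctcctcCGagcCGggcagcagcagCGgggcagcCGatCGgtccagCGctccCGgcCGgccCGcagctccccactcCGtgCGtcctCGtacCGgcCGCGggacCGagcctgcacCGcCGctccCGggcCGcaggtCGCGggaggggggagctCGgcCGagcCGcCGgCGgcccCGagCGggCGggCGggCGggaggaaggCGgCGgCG
GC content of these runs was 65.2%, 76.0% and 82.4%. Over the full 300 bases, from 250 before to 50 after the start, the 4 tested mouse members held 41 (Ldb1), 52 (Lmo4), 28 (Ssbp2) and 50 (Ssbp3) CG dinucleotides. The untested members with a promoter held 12 (Lmx1a), 24 (Lmx1b), 31 (Lhx1) and 34 (Lhx2), and the median of all promoters in the table was 7. All 8 were above that median, untested members included. The RefSeq start lay furthest from the deposited gene start for Ssbp2 (814 bases), Ssbp3 (769), Lmx1b (-587) and Lmx1a (321), positive being downstream.

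LIM-homeodomain factors bind AT-rich sites with a TAAT core. The motif TAATTA, which reads the same on both strands, was in 0 of the 14 member promoters, against 5.29% of 32851 promoters in the table. TAAT on either strand, which any TAATTA also contains, was in 5 of 14, against 58% of all. Lmx1a, Lhx1, Ldb1 and Ssbp3 had at least 1 promoter with it. The 14 promoters come from 8 genes. The promoter nearest the deposited gene start held from 59.3% GC (Lmx1a) to 81.3% GC (Lmo4) in these genes. The median over all promoters was 52.7%. The part of base composition in the motif counts was not tested. These counts describe the letters of a 300-base window only.

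Partners and regulators of the LDB complex were read from a list of 13 genes, of which 7 were tested and 0 passed in any comparison, beside 0.352%, 1.09% and 0.226% of all genes tested. The E-proteins of LDB1 complexes led the list, Tcf3 at 33.4 to 43.6 FPKM and Tcf12 at 21.2 to 27.3 FPKM, with overlapping groups. Tcf4, another E-protein, ranged from 19.5 to 29.7 FPKM and its groups overlapped. Its c915dup against WT difference of 0.23 ± 0.12 did not pass (limma adjusted p = 0.552). It passed with the libraries numbered 1 as a block (0.23, limma adjusted p = 0.0319), where 574 genes passed in place of 27. It did not with the replicate block (0.21, limma adjusted p = 0.119) or without the libraries numbered 1 (0.22, limma adjusted p = 0.112). Rlim, the ligase that breaks down LDB1, ranged from 19.2 to 23.9 FPKM and differed between c915dup and WT by -0.03 (95% interval -0.21 to 0.15). Runx1, a transcription factor found with LDB1 in blood cells, was at 8.04, 7.69 and 7.89 FPKM in EV, at 6.59, 6.49 and 6.54 in WT, and at 7.18, 7.30 and 6.91 in c915dup. The WT libraries of Runx1 lay below all others, with a log2 difference from EV of -0.23 ± 0.06 (SE) that did not pass (limma adjusted p = 0.246). Rlim, Tcf4 and Runx1 were named after their values were seen. The median log2 difference of the 7 was 0.04, -0.00 and -0.02 for WT against EV, c915dup against EV and c915dup against WT.

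Most genes reported downstream of Lmx1a or Lmx1b in the mouse stayed below 1 FPKM, as did most genes in the table. Of 28, 5 were tested (Msx1, Bmp4, Nr4a2, En1 and Rspo2), beside 11933 of all 55451 genes in the table. In all libraries 22 were below 1 FPKM, and 7 of those were listed at 0 throughout, among them Th, Slc6a3, Foxa2 and Wnt3a. Nr4a2, an orphan nuclear receptor of midbrain dopaminergic neurons that is also an immediate early gene, was the 1 of 5 that passed, in c915dup against EV, where 1.09% of all genes tested passed. It was at 4.86, 3.64 and 3.12 FPKM in EV, at 7.12, 6.24 and 6.31 in WT, and at 13.03, 10.1 and 10.9 in c915dup, so that the 3 groups did not overlap. Of all genes tested, 12.9%, 16.9% and 16.1% had no overlap between WT and EV, c915dup and EV, and c915dup and WT.

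Nr4a2 rose in c915dup over EV by 1.35 ± 0.13 on the log2 scale (limma adjusted p = 9.2e-04). WT against EV gave 0.65 ± 0.13 (limma adjusted p = 0.139) and c915dup against WT 0.70 ± 0.13 (limma adjusted p = 0.0717). With the replicate block both passed, at the same differences (limma adjusted p = 0.00586 and 0.013). Bmp4, a secreted signal of the developing ear and dorsal neural tube, was at 14.6, 16.6 and 15.2 FPKM in EV, at 11.2, 13.4 and 13.1 in WT, and at 11.5, 12.3 and 13.5 in c915dup. Both transduced groups of Bmp4 lay below EV, by -0.28 for WT (limma adjusted p = 0.531) and -0.29 for c915dup (limma adjusted p = 0.207). Both differences passed with the libraries numbered 1 as a block (limma adjusted p = 0.0415 and 0.0126). In that setting 145 and 661 genes passed in place of 42 and 130. Neither passed with the replicate block (limma adjusted p = 0.0679 and 0.0583) or without the libraries numbered 1 (limma adjusted p = 0.22 and 0.0672). The median log2 difference of the 5 was 0.09, 0.00 and -0.02 in the order used above. The comparisons with EV share its 3 libraries.

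The genes with the pattern most like each member were taken by Pearson r of log2(FPKM + 1) over the 9 libraries, which share depth, library number and group. For LMX1A they were Arc (r = 0.992), Hes1 (0.99) and Errfi1 (0.988), but EV and the transduced libraries form separate clusters, and within the 6 transduced libraries r was 0.628, 0.71 and 0.889. Hes1, a Notch-linked repressor, was at 23.9, 21.7 and 20.2 FPKM in EV, at 69.0, 68.3 and 67.9 in WT, and at 79.1, 90.9 and 77.4 in c915dup. For Ldb1 they were Gripap1, Bag3 and Abhd14a (r = 0.963, 0.957 and 0.951, and 0.974, 0.993 and 0.966 over the 6 libraries not numbered 1). Bag3, a co-chaperone, was at 26.0, 26.0 and 25.8 FPKM in EV, at 25.4, 25.0 and 24.7 in WT, and at 27.2, 27.5 and 26.9 in c915dup. Bag3 was chosen for its correlation with Ldb1 over these libraries, so the order of groups it shares with Ldb1 is no separate result.

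For Lmo4 the nearest genes were Gata3, Slc10a7 and Vps25 (r = 0.954, 0.942 and 0.937), Gata3 being an otic transcription factor read here at 0.918 to 1.45 FPKM. For Ssbp2 they were Wdr77, Ppil3 and Kpna6 (r = 0.97, 0.969 and 0.967), and for Ssbp3 Vamp8, Glipr1 and Ftl1 (r = 0.973, 0.97 and 0.967). Over the 6 libraries not numbered 1, r of Ftl1 with Ssbp3 was 0.736, and Vps25 stood at 0.812 with Lmo4. Among the members, r over all 9 libraries was 0.82 between Lmo4 and Ssbp3, 0.80 between Ssbp2 and Ssbp3, and 0.09 between Ldb1 and Ssbp2. Lmo4, Ssbp2 and Ssbp3 were all higher in the libraries numbered 1 than in the rest. For these pairs of members r was not computed without those libraries.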

How the data were processed

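RNA was extracted with Trizol and made into TruSeq libraries, per the labels' protocols. The authors deposited FPKM for 55451 genes in 9 libraries; the header is silent on the unit, and it was inferred from library sums of 339489 to 358766 and from equal steps of value times transcript length. The submitters' processing notes name CASAVA 1.8, Trimmomatic, FastQC, HISAT2, RSEM and edgeR with GRCm38, without roles, while the design text names other aligners. The sources do not give strand use in counting. Columns of c915dup are numbered 1, 3 and 4 and were tied to their group only; replicates are called by these numbers.

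All 9 libraries entered 1 limma 3.58.1 fit (R 4.3.3; lmFit, eBayes with trend and robust) of 3 group means on log2(FPKM + 1), for genes that reached 1 FPKM in 3 or more libraries, two-sided, with Benjamini-Hochberg adjustment over 11933 genes. The pseudocount of 1 understates changes of low genes. Ratios were compared with exact permutation tests. Python 3.11.15 with pandas 2.3.3, numpy 2.4.6, scipy 1.17.1 and matplotlib 3.10.9 handled tables, tests of ratios and figures. The fit was tested on simulated data. Depth was estimated from the steps of low values and entered no test.

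The members, the gene lists and the tests were chosen with earlier results of these data known. Named genes are the members, every LIM-homeodomain, LIM-only, LDB and SSBP gene, and the 3 genes nearest to each tested member in pattern. The passing genes and the 2 highest are named of the partner, downstream, supporting cell and mesenchymal lists, and the highest of the hair cell list. Other markers and list genes were chosen after their values were seen: some listed at 0, the tested downstream genes, and Rlim, Tcf4 and Runx1. Pprc1 and 4833422C13Rik are named for exons shared with members. The marker lists (hair cell, supporting cell, mesenchymal, epithelial, immune, endothelial, neuronal and glial) describe the line.

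Deviations from the group means correlated between same-numbered EV and WT libraries (0.62, 0.39 and 0.26 for numbers 1, 2 and 3), and the column numbers were used as a replicate block. Same-numbered pairs with c915dup gave 0.66, 0.64, 0.32 and 0.23. Outside number 1, pairs that differ in number gave 0.27 to 0.42, as high as same-numbered ones, so the values separate number 1 from the rest (-0.50 to -0.38) and do not tell numbers 2, 3 and 4 apart. The pairing comes from these values, not from the labels. Other alternatives covered the pseudocount, filters, scaling, variance model and left-out libraries.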

Additional observations from a re-analysis of the deposited data

How the results depend on the processing

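Ldb1 kept its direction in all 19 alternatives of each comparison, and LMX1A did so between c915dup and WT. The LMX1A to Ldb1 ratio between c915dup and WT (-0.07) ranged from -0.13 to -0.007 leaving out 1 library each and was -0.19 without the libraries numbered 1 (exact permutation test, p = 0.333, the smallest possible with 2 against 2). The summed LIM-domain ratio (-0.10) ranged from -0.16 to -0.04, and was -0.21 without them. Counts of passing genes depended most on the libraries numbered 1. For WT against EV (42) the count was 24 with no filter, 27 with only the groups compared, 96 with the replicate block, 145 with the block of libraries numbered 1, 83 without those libraries, and 19 to 40 leaving out 1 library each. For c915dup against EV (130) these were 66, 63, 227, 661, 403 and 61 to 111. For c915dup against WT (27) they were 10, 14, 137, 574, 349 and 8 to 36, with 42 after rescaling to an equal sum and 63 with size factors. Single libraries moved these counts by over 1.5 times. For WT against EV these were EV replicates 2 and 3 (19 each) and WT replicates 1 and 2 (26 and 23). For c915dup against EV they were EV replicates 1, 2 and 3 (80, 67 and 61), WT replicate 3 (83) and c915dup replicates 3 and 4 (70 and 63). For c915dup against WT every library but EV replicate 1 did so (8 to 13). The replicate block changed no call of a tested member. The cause of these shifts was not tested.

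Among members, signs turned only where neither value passed. Rescaling to an equal sum gave -0.00 for Ssbp3 (c915dup against EV) and -0.01 for Lmo4 (c915dup against WT), the replicate block 0.06 for Ssbp2 (c915dup against WT), and leaving out the libraries numbered 1 gave -0.02 for Ssbp3 (c915dup against EV). Leaving out 1 library each, Lmo4, Ssbp2 and Ssbp3 ranged from -0.03 to 0.11, -0.19 to 0.03 and -0.17 to 0.03 for WT against EV, from -0.01 to 0.12, -0.43 to 0.00 and -0.09 to 0.08 for c915dup against EV, and from -0.07 to 0.07, -0.36 to 0.07 and -0.03 to 0.17 for c915dup against WT. With 3 libraries a group, the 95% intervals of Lmo4, Ssbp2 and Ssbp3 all held 0, which does not show that these genes were alike. Lmx1b, Lhx1, Lhx2 and Ldb2 did not reach the FPKM filter.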

Other observations

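The summed FPKM of Ssbp2, Ssbp3 and Ssbp4 per Ldb1, a measure added after the values were seen, was 2.19, 2.27 and 2.31 in EV, 2.21, 2.35 and 2.39 in WT, and 1.85, 1.93 and 1.91 in c915dup. The c915dup libraries lay below all others, by -0.25 against EV and -0.29 against WT on the log2 scale (exact permutation test, two-sided, p = 0.1 each, the smallest possible), while WT and EV overlapped (0.04, exact permutation p = 0.4). Ldb1, the denominator, had already been seen to be highest in c915dup, so these p-values are no test apart from Ldb1. Without the libraries numbered 1 the differences were -0.25 and -0.30. The SSBP sum itself overlapped between groups: 76.7, 79.2 and 78.5 FPKM in EV, 78.0, 73.6 and 71.0 in WT, and 74.1, 80.3 and 71.6 in c915dup. The libraries numbered 1 did not stand apart in this sum, where Ssbp4 was lower and Ssbp2 and Ssbp3 were higher. In each group, though, the library numbered 1 had the lowest ratio to Ldb1.

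The mouse LIM-homeodomain and LIM-only sum per Ldb1, with LMX1A left out, was a measure also added after the values were seen. It was 1.04, 0.917 and 0.943 in EV, 1.04, 1.10 and 1.05 in WT, and 0.968, 0.813 and 0.923 in c915dup. It differed by -0.24 between c915dup and WT, which did not overlap (exact permutation test, two-sided, p = 0.1, the smallest possible). The difference was -0.10 between c915dup and EV (p = 0.5, exact permutation) and 0.14 between WT and EV (p = 0.2, exact permutation). Ldb1 is the denominator of both ratios, so they are not independent of its own values.

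Markers of other cell types summed to at most 0.348 FPKM for the 4 epithelial genes, 0.263 for the 3 endothelial, 0.826 for the 3 glial, 5.05 for the 4 immune and 19.6 for the 4 neuronal genes.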
